A study of Mus musculus with 6 samples.

Results

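Iron and oxoglutarate dependent dioxygenases are enzymes that hold an iron atom in their active site and use oxygen and 2-oxoglutarate, an intermediate of the citric acid cycle, to hydroxylate a substrate. The genes described here were 36 of the 24422 in the count tables and were taken by symbol. They are the histone demethylases, the TET oxidases of DNA, the AlkB family with its nucleic acid demethylases, the collagen hydroxylases and a few related enzymes. The hydroxylases of HIF were left out. Poly-A RNA was counted in whole kidneys of C57BL/6 mice at postnatal day 13, all on a diet with 220 ppm iron. There were 3 Control libraries, which the labels call wild type, and 3 TfR1KO libraries with the genotype Tfr1f/f;SixCre. TfR1, encoded by Tfrc, takes up iron bound to transferrin. Six2Cre acts in the progenitors of the nephron, which do not give rise to stroma, vessels or collecting ducts, and the study describes tubule cells that escaped the deletion. The series text calls the 3 libraries of a group biological replicates.

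Each catalytic cycle of these enzymes releases succinate and carbon dioxide and leaves a hydroxyl group on the substrate. On a methylated nitrogen the hydroxymethyl group falls off as formaldehyde, which is how the histone and nucleic acid demethylases work. On collagen the hydroxyl groups on proline hold the triple helix together, and those on lysine are used for cross-links. The iron sits in the protein, so a transcript count measures how much of the message was present and not how much enzyme was active. Several of these genes, Kdm3a, Kdm4b, P4ha1, P4ha2 and Plod2 among them, are known targets of the hypoxia-inducible factors in other cells.

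The libraries held 16591156 to 22898008 counts. The markers of the main cell types of the kidney were present in every list examined, and 4 of the 8 erythroid markers were under 1 normalized count in every library. The difference in Tfrc itself did not pass the test (log2 fold change 0.11, SE 0.29, DESeq2 adjusted p 0.853), so this gene does not check the labels, and a count over the whole gene also holds reads from exons outside the deleted part. Of the 8 marker lists, the summed levels of 5 did not overlap between groups. The thick ascending limb list was lower (53448 to 120157 normalized counts in Control, 14693 to 27730 in TfR1KO), as was the proliferating cell list (9322 to 11062 against 3541 to 5678), and the macrophage list was higher (3008 to 5204 against 9418 to 11316), as was the collecting duct list (10507 to 20746 against 38864 to 66323). The stromal sum was lower (78735 to 159924 against 43775 to 77589), but Control 2 (78735) lay just above TfR1KO 1 (77589). Of its 10 genes 3 passed lower by DESeq2 and 0 by edgeR. The sums of the proximal tubule, endothelial and erythroid lists overlapped, but the proximal tubule sum holds opposite changes: 7 of its 20 genes passed lower and 2 higher by DESeq2, among them Slc5a2 and Kap (log2 fold changes -5.12 and -3.62) and Pck1 (2.12). In RNA from a whole kidney, fewer cells of a type and less RNA per cell cannot be told apart. Control 3 had the highest stromal sum of all libraries (159924, against 78735 to 81025 in the other Control libraries) and TfR1KO 2 the lowest (43775). Control 3 was also the library of its group farthest from the group median for 27 of the 36 dioxygenases (75.0%, against 67.8% of all genes tested), and TfR1KO 2 for 16 (44.4%, against 49.4%).

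For most of the dioxygenase transcripts the difference between Control and TfR1KO kidneys was small. All 36 had an adjusted p, and 2 passed the test, both of them histone demethylases and both higher in TfR1KO kidneys: Kdm3a by 1.64-fold and Kdm4a by 1.35-fold (DESeq2 Wald test on the counts, adjusted p under 0.05 over all 16509 genes tested). This is 5.56% of the members, where 14.9% of all genes tested passed, 7.74% higher and 7.18% lower. No member was called lower, and none passed with a change of at least 2-fold, where 8.87% of all genes did. At an unadjusted p under 0.05 there were 6 members, or 16.7%, against 27.3% of all genes: Kdm3a, Kdm3b, Kdm4a, P4ha2 and Jmjd6 with positive differences and Tet1 with a negative one.

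By the stricter edgeR quasi-likelihood test, which called 6.02% of all genes, 0 of 35 members passed. By limma-voom, which called 941 of 15308 genes, 0 of 35 passed too (P4ha3 fell below the count filter of both). At an unadjusted p under 0.05 edgeR had 6 members (17.1%, against 25.8% of all genes). There limma-voom had 5 members, and 3982 of all 15308 genes. The median SE of a member's log2 fold change was 0.21, against 0.27 over all genes tested, and where the mean reached 100 normalized counts, 6.25% of the 32 members and 15.8% of all genes were called. For 32 of the 36 members the 95% interval of the fold change lay within 2-fold in both directions (88.9%, against 53.8% of all genes tested), and 34 had a log2 fold change under 0.5 in size (94.4%, against 63.2%). The 4 members whose intervals reached beyond 2-fold were Kdm3a, P4ha3, Bbox1 and Phyh. For the other 32 a change of 2-fold or more lay outside the interval, which leaves room for smaller ones.

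The signs of these small differences were uneven: 23 were positive and 13 negative, with a median log2 fold change of 0.15 against 0.0071 over all genes tested. Of all 16509 genes tested 8373 differences were positive and 8136 negative. In 10 members all TfR1KO libraries lay above all Control libraries, namely Kdm2b, Kdm3b, Kdm4a, Kdm4b, Kdm6b, Alkbh5, P4ha2, Jmjd6, Hspbap1 and Ogfod1 (16.9% of all genes tested did so). Tet1 was the 1 member for which all TfR1KO libraries lay below (again 16.9% of all genes). This split depended on the scaling. With libraries scaled by their total counts, which lowered the median log2 fold change of all genes to -0.097, the 10 became 4 (Kdm4a, Alkbh5, Jmjd6 and Ogfod1, against 12.3% of all genes), the 1 became 2 (Tet1 and Jmjd4, against 21.5%), and the median of the members fell to 0.038.

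**Figure D1:**
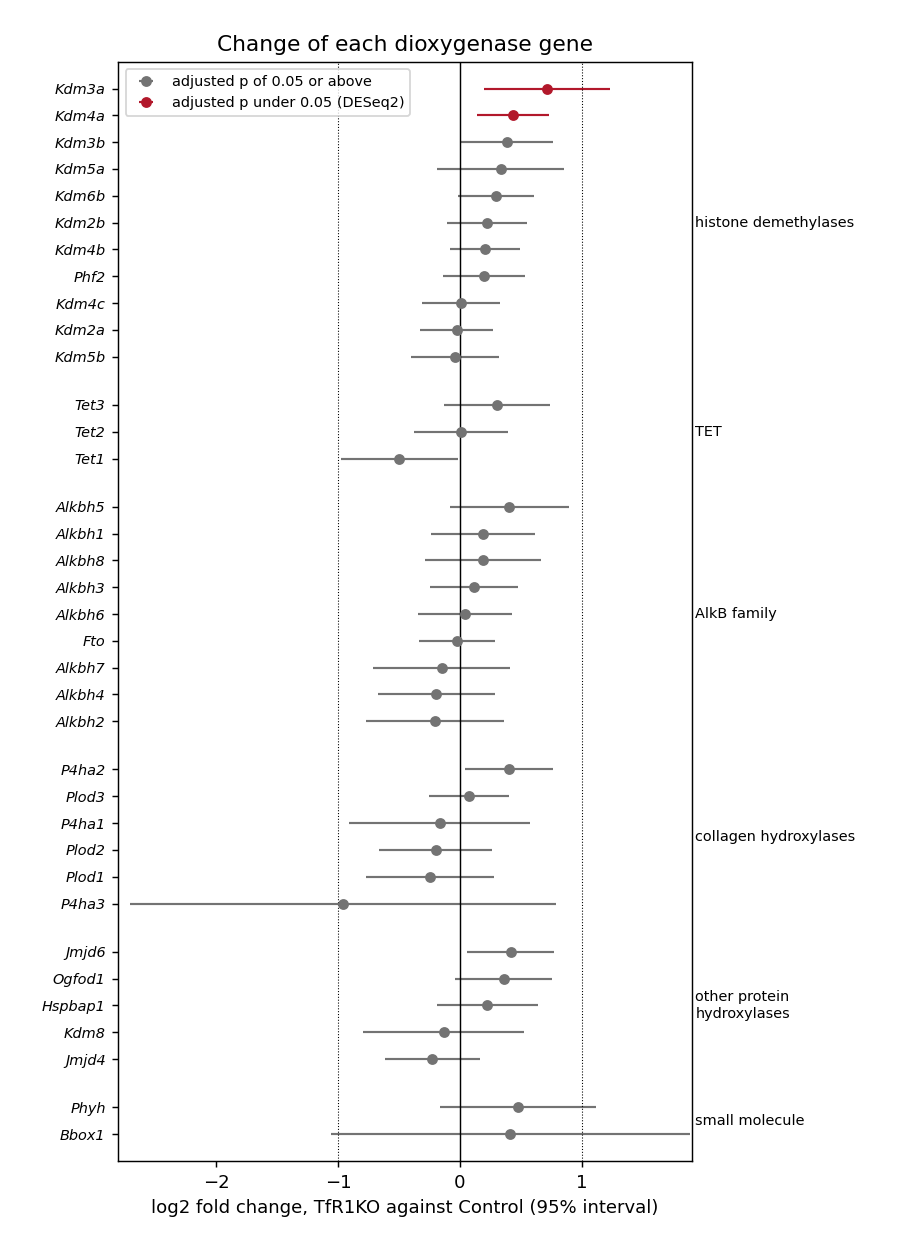
Log2 fold change of each of the 36 genes in TfR1KO against Control kidneys (points), with its 95% interval (bars), grouped by role. The dotted lines mark 2-fold in either direction, and the 2 genes in red, Kdm3a and Kdm4a, had a DESeq2 adjusted p under 0.05; P4ha3 and Bbox1 have the widest intervals.

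The histone demethylases remove methyl groups from lysines of histone tails. Kdm3a (chromosome 6, 71538968 to 71582899 in mm9, gene ENSMUSG00000053470) acts on marks of silent chromatin. It had 984, 1046 and 1527 normalized counts in Control 1 to 3 and 1509, 2385 and 1939 in TfR1KO 1 to 3. TfR1KO 1 lay just below Control 3, so the groups overlapped, and the other TfR1KO libraries lay above every Control library. The mean was 1186 ± 298 in Control and 1944 ± 438 in TfR1KO kidneys (mean ± SD, n = 3 each), a log2 fold change of 0.71 (SE 0.26, DESeq2 adjusted p 0.0483, edgeR adjusted p 0.113).

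Kdm4a (chromosome 4, 117809562 to 117852648, gene ENSMUSG00000033326) acts on trimethylated lysines of histone H3. Its normalized counts were 1583, 1582 and 1695 in Control and 1955, 2354 and 2272 in TfR1KO libraries, and the groups did not overlap. The means were 1620.3 ± 65.0 and 2194 ± 211 (n = 3 each), a difference of 0.44 on the log2 scale with an SE of 0.15 (adjusted p 0.0306 by DESeq2 and 0.0885 by edgeR). Both calls lay close to the threshold. Each was made in 2 of the 6 fits that left out 1 library (without Control 3, and without TfR1KO 1) and lost without Control 1, Control 2, TfR1KO 2 or TfR1KO 3, where the DESeq2 adjusted p ran from 0.168 to 0.282 for Kdm3a and from 0.118 to 0.272 for Kdm4a. In those 4 fits the log2 fold change was 0.55 to 0.72 for Kdm3a and 0.39 to 0.42 for Kdm4a. Leaving out Control 3 and TfR1KO 2 together, a setting chosen after seeing the data, gave log2 fold changes of 0.77 for Kdm3a and 0.42 for Kdm4a. These libraries were the ones most often farthest from their group median. Removing them narrows the spread by choice, so the calls of that fit cannot decide whether the genes differ and are not given. Control 1 and Control 2 were also the most alike of the Control libraries (correlation across genes 0.987). The fit without Control 3 alone rests on that pair too. Scaling by total counts or by the upper quartile ended both calls, with DESeq2 adjusted p of 0.120 and 0.0844 for Kdm3a and of 0.139 and 0.0602 for Kdm4a. The log2 fold changes were then 0.58 and 0.65 for Kdm3a and 0.33 and 0.38 for Kdm4a, while the median of all genes stood at -0.097 and -0.043.

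The stretches just before the start sites of 4 genes are shown. Picked were Kdm3a and Kdm4a, the pair that passed the test, and P4ha1 and P4ha2, which are sister subunits. The log2 fold changes of P4ha1 and P4ha2 had opposite signs, but neither passed, and whether they differed from each other was not tested. The stretches are the 100 bases before the start in RefSeq's GRCm38.p6 promoter windows, read 5′ to 3′ on the strand of the gene. Capitals mark ACGTG, a form of the core letters of a hypoxia response element, or its reverse complement CACGT. The other form, GCGTG, was not searched or marked.
Kdm3a (chr6:71632918-71633017, minus strand): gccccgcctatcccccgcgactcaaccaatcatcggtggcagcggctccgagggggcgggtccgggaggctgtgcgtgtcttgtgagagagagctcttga
Kdm4a (chr4:118180044-118180143, minus strand): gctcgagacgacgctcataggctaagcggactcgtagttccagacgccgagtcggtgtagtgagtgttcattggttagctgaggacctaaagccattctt
P4ha1 (chr10:59323196-59323295, plus strand): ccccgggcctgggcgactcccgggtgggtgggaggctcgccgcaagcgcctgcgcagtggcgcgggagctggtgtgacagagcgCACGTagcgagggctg
P4ha2 (chr11:54100824-54100923, plus strand): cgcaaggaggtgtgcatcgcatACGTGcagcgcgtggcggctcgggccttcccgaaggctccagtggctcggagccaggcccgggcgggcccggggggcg

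ACGTG was searched on both strands from 250 bases before to 50 after each start. Windows were found for 30 members and not for Kdm2a, Kdm3b, Kdm4b, Kdm5a, Kdm6b and Plod2. Of the 30, 11 (36.7%) held ACGTG or CACGT in at least 1 window, and so did 21.8% of 27025 genes in the table. The members are not a random draw of promoters, and the share was not tested. P4ha1 had 1 match at position -16 and P4ha2 a match at -78 in the bases shown and another at 10 bases after the start. Neither Kdm3a nor Kdm4a held ACGTG or CACGT in its windows, which says nothing of GCGTG or of other parts of the gene. The bases printed for Kdm3a and for P4ha2 do hold GCGTG. A match is a run of letters and not a site of binding.

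**Figure D2:**
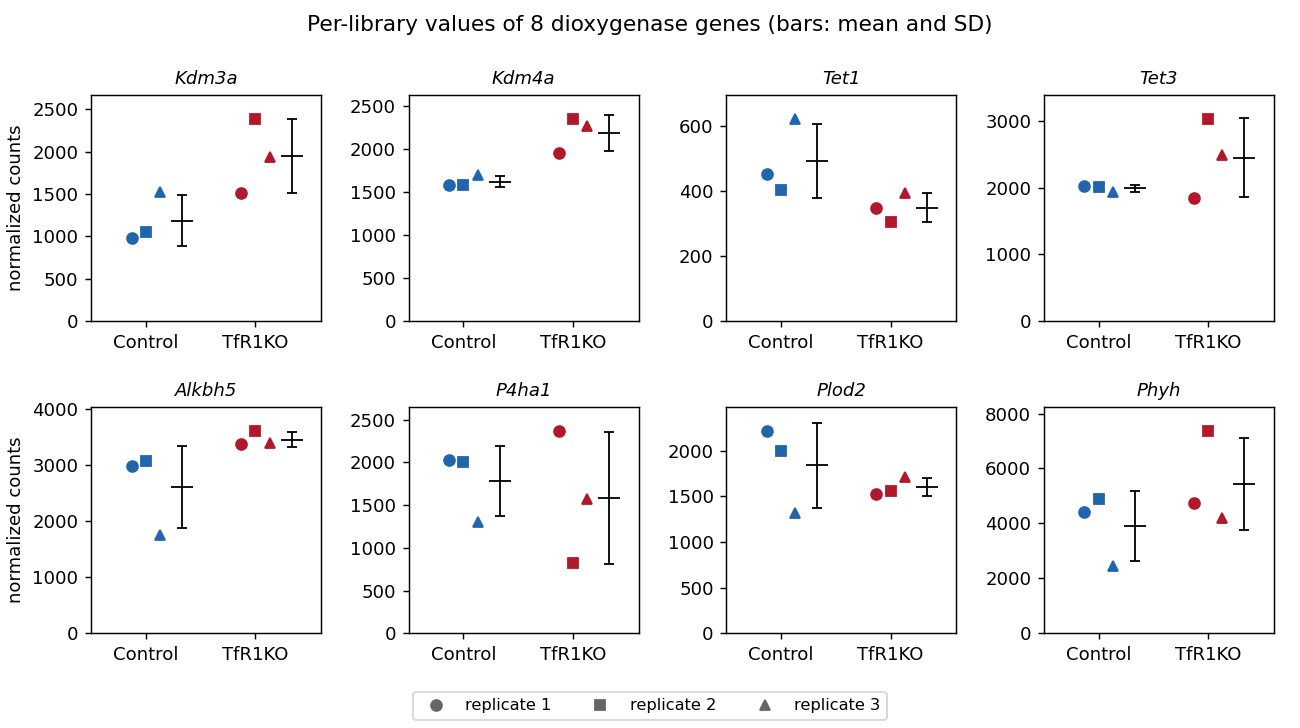
Normalized counts (vertical axes, from 0) of 8 members in each of the 3 Control and 3 TfR1KO libraries, with the mean and SD of each group in black. Kdm4a, Alkbh5 and Tet1 have no overlap between groups, P4ha1 spans 818 to 2363 within the TfR1KO group, and Control 3 is the lowest Control library for Alkbh5, P4ha1, Plod2 and Phyh.

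The paralogues of the called pair did not pass the test. Kdm3b had 1353, 1471 and 1591 normalized counts in Control and 1615, 2268 and 1888 in TfR1KO libraries, all of the latter above all of the former (log2 fold change 0.39, 95% interval 0.0096 to 0.76, adjusted p 0.170). Kdm4b had 1035, 1066 and 1068 against 1190.3, 1129.7 and 1335, a similar order with a smaller gap (log2 fold change 0.21, 95% interval -0.083 to 0.50, adjusted p 0.377). Kdm4c was at nearly the same mean in both groups, 693 ± 65.4 and 699 ± 41.1 (log2 fold change 0.011, 95% interval -0.31 to 0.33, adjusted p 0.977). Whether Kdm3a or Kdm4a changed more than its paralogues was not tested.

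Kdm2a, which acts on histones at CpG islands, had the highest counts of the histone demethylases. It had 2527, 2561 and 2227 normalized counts in Control and 2221, 2358 and 2612 in TfR1KO libraries, with full overlap (log2 fold change -0.025, 95% interval -0.32 to 0.27, adjusted p 0.941). Kdm6b, the demethylase of the Polycomb mark on histone H3, had 1433, 1392 and 1315 against 1816, 1483 and 1794 normalized counts, without overlap (log2 fold change 0.30, 95% interval -0.013 to 0.61, adjusted p 0.206). Kdm5a, which removes a mark of active promoters, was highest in TfR1KO 2 (2579), while the other TfR1KO libraries, at 1512 and 1702, lay within the Control range of 1365 to 1847 (log2 fold change 0.34, 95% interval -0.18 to 0.86, adjusted p 0.432). For the remaining members the log2 fold change with its 95% interval was 0.22 (-0.11 to 0.55) for Kdm2b, 0.20 (-0.14 to 0.53) for Phf2 and -0.038 (-0.40 to 0.32) for Kdm5b. Over the 11 genes of the group 9 differences were positive (8373 of all 16509 genes tested were), 2 were negative, and the median was 0.22.

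The 3 TET enzymes oxidise methylcytosine in DNA, the first step of active demethylation. Their differences had no common direction. Tet1 had 453, 403 and 622 normalized counts in Control and 348, 306 and 394 in TfR1KO libraries. Every TfR1KO value was below every Control value, the means being 493 ± 115 and 349 ± 43.9, but the difference did not pass the test (log2 fold change -0.49, SE 0.24, DESeq2 adjusted p 0.163, edgeR adjusted p 0.187). Without Control 3 the log2 fold change was -0.30, and without Control 3 and TfR1KO 2 together it was -0.21. The summed proliferating cell markers were lower in every TfR1KO library than in every Control library too, and their part in the Tet1 values was not tested.

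Tet3 had the highest counts of the 3, with 2031, 2011 and 1933 in Control and 1843, 3036 and 2489 in TfR1KO libraries. The Control values were within a narrow range, while TfR1KO 1 lay below them and the other TfR1KO libraries above (log2 fold change 0.30, 95% interval -0.13 to 0.74, adjusted p 0.393). Tet2 was level, at 1212 ± 219 and 1218 ± 93.0 (log2 fold change 0.0073, 95% interval -0.38 to 0.39, adjusted p 0.987). Per kilobase of exon, which allows genes to be compared, Tet1 made up 8.44 to 11.3% of the TET transcripts in Control libraries and 4.91 to 7.12% in TfR1KO libraries. These ranges did not overlap, while those of Tet2 and Tet3 did. The shares are made from the same counts as above and are not separate evidence. No test was run on them, and no value over all genes stands beside them.

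Several of the AlkB enzymes, though not all, remove alkyl groups from DNA or RNA, and Alkbh5 and Fto are the demethylases of methyladenosine in mRNA. Alkbh5 had the highest counts of the 9 genes, with 2986, 3073 and 1756 in Control and 3366, 3598 and 3381 in TfR1KO libraries. The TfR1KO values were close together and above every Control value, but much of the difference in means lay in Control 3, which was low (log2 fold change 0.40, 95% interval -0.084 to 0.89, adjusted p 0.292). Without Control 3 the log2 fold change was 0.18. Fto, the other eraser of the mark, was level, at 1598 ± 186 and 1571 ± 42.5 normalized counts (log2 fold change -0.025, 95% interval -0.34 to 0.29, adjusted p 0.944).

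For the tRNA and DNA repair enzymes of the family the log2 fold change with its 95% interval was 0.19 (-0.24 to 0.62) for Alkbh1, -0.20 (-0.77 to 0.37) for Alkbh2, 0.12 (-0.24 to 0.48) for Alkbh3 and 0.19 (-0.29 to 0.66) for Alkbh8. For the others it was -0.19 (-0.67 to 0.29) for Alkbh4, 0.040 (-0.35 to 0.43) for Alkbh6 and -0.15 (-0.71 to 0.41) for Alkbh7, which is found in mitochondria. Their adjusted p ran from 0.619 to 0.925. None of the 9 had an unadjusted p under 0.05 by DESeq2, edgeR or limma-voom. Of the 9 genes 5 had a positive and 4 a negative difference, with a median of 0.040.

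Among the collagen hydroxylases no direction was shared, with 2 positive and 4 negative differences and a median of -0.18. By DESeq2 0 of the 6 passed, and by edgeR and limma-voom 0 of the 5 tested. Each tool had 1 gene, P4ha2, at an unadjusted p under 0.05. P4ha1 to P4ha3 encode the catalytic subunits of collagen prolyl hydroxylase, and Plod1 to Plod3 the lysyl hydroxylases. P4ha1 (chromosome 10, 58786044 to 58836052 in mm9) had 2027, 2004 and 1304 normalized counts in Control and 2363, 818 and 1576 in TfR1KO libraries. The highest and the lowest value of all 6 libraries were both in the TfR1KO group (log2 fold change -0.17, 95% interval -0.91 to 0.58, adjusted p 0.824). Leaving out TfR1KO 2 turned the sign, to a log2 fold change of 0.15, and leaving out TfR1KO 1 gave -0.57, so the direction rested on single libraries.

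P4ha2 (chromosome 11, 53913597 to 53945167) had 386, 376 and 311 against 475, 439 and 504, higher in every TfR1KO library than in any Control library, and did not pass the test over all genes (log2 fold change 0.40, 95% interval 0.039 to 0.76, adjusted p 0.131). P4ha3 was near the lower limit of what the test takes in, with 3.30, 16.4 and 14.0 against 4.97, 7.68 and 4.73 normalized counts, and its interval spanned -2.71 to 0.79 on the log2 scale. Per kilobase of exon P4ha1 made up 85.3 to 88.7% of the 3 subunits in Control libraries and 73.2 to 88.1% in TfR1KO libraries, with 73.2% in TfR1KO 2, where P4ha2 made up 25.9%. Both genes hold ACGTG or CACGT in the bases printed here.

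Among the lysyl hydroxylases, Plod2 had the highest counts, with 2211, 1991 and 1311 in Control and 1527, 1562 and 1714 in TfR1KO libraries. The TfR1KO values fell inside the Control range (log2 fold change -0.20, 95% interval -0.66 to 0.26, adjusted p 0.631). Plod1 was highest in Control 3 (2101) and lowest in TfR1KO 2 (1016), the libraries with the highest and the lowest stromal marker sum (log2 fold change -0.24, 95% interval -0.77 to 0.28, adjusted p 0.601). P4ha1 was not ordered that way, being low in both. The part of stromal content in these values was not tested. Plod3 was level, at 1363 ± 140.3 and 1435 ± 122 (log2 fold change 0.075, 95% interval -0.25 to 0.40, adjusted p 0.819). Its share of the 3 lysyl hydroxylases per kilobase was 28.8 to 32.3% in Control and 33.6 to 35.7% in TfR1KO libraries, without overlap, and was not tested.

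**Figure D3:**
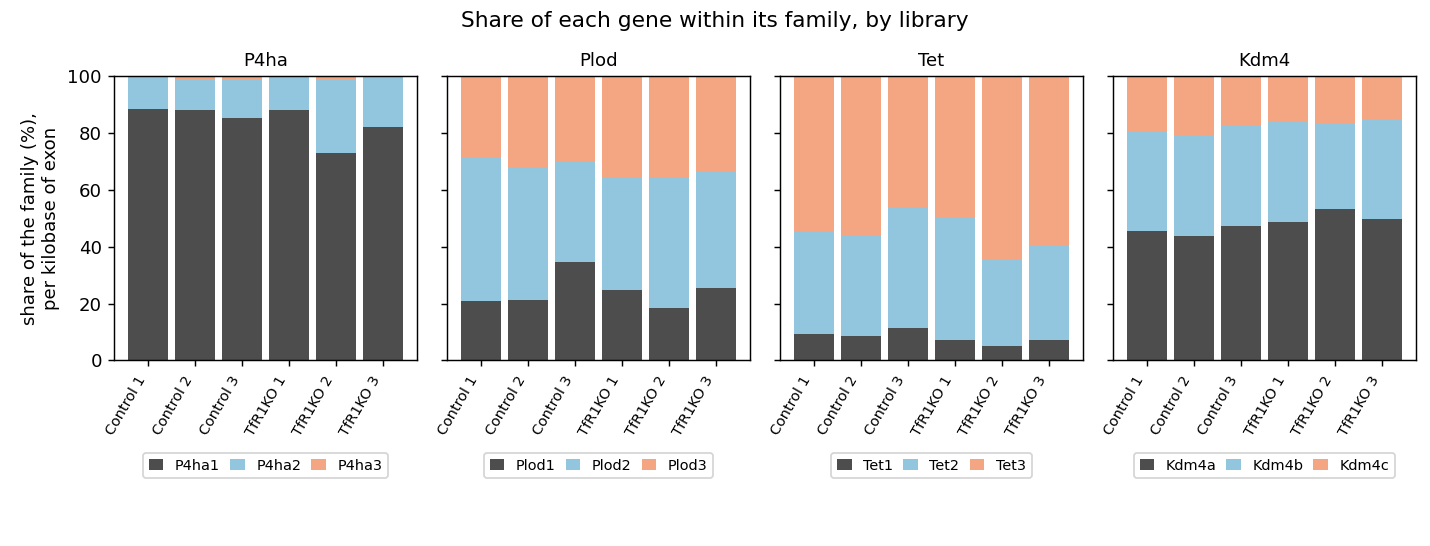
Share of each gene within its family in each library (stacked bars, percent of the family's counts per kilobase of exon) for the collagen prolyl hydroxylases, the lysyl hydroxylases, the TET enzymes and Kdm4a to Kdm4c. P4ha1 falls from 88.1% in TfR1KO 1 to 73.2% in TfR1KO 2, Plod1 is largest in Control 3 (34.7%), and the Tet1 share is 8.44 to 11.3% in Control and 4.91 to 7.12% in TfR1KO libraries.

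The Kdm4 family was ordered alike in all libraries, Kdm4a first and Kdm4c last. Kdm4a made up 44.0 to 47.3% in Control and 48.7 to 53.3% in TfR1KO libraries, and Kdm4c 17.5 to 21.0% and 15.4 to 16.5%. Within the Kdm3 pair the share of Kdm3a was 52.5 to 59.9% in Control and 59.2 to 62.0% in TfR1KO libraries, which overlapped through Control 3. Kdm5a made up 32.5 to 34.1% of the Kdm5 pair in Control libraries and 34.9, 46.1 and 35.8% in TfR1KO 1 to 3, so that TfR1KO 2 again stood apart.

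The other protein hydroxylases and relatives of the JmjC fold did not pass the test. Jmjd6, a lysyl hydroxylase of splicing factors, had 748, 704 and 597 normalized counts in Control and 804, 975 and 959 in TfR1KO libraries, without overlap (log2 fold change 0.42, 95% interval 0.058 to 0.77, adjusted p 0.109). Ogfod1, which hydroxylates a ribosomal protein, had 450.2, 499.9 and 380.0 against 510.1, 651 and 547, again without overlap (log2 fold change 0.36, 95% interval -0.040 to 0.76, adjusted p 0.241). Hspbap1 lies 3.14 Mb from Tfrc on chromosome 16, and its counts were 139.8 ± 10.1 and 163 ± 4.72 (log2 fold change 0.22, 95% interval -0.19 to 0.64, adjusted p 0.527). Kdm8 and Jmjd4 had log2 fold changes of -0.13 (-0.79 to 0.53) and -0.22 (-0.61 to 0.16), with 95% intervals in brackets.

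Phyh and Bbox1 act on small molecules. Phyh, the peroxisomal hydroxylase that starts the breakdown of phytanic acid, had 4399, 4876 and 2449 normalized counts in Control and 4727, 7354 and 4213 in TfR1KO libraries. TfR1KO 2 was the highest and Control 3 the lowest, and the other 4 values lay between 4213 and 4876 (log2 fold change 0.47, 95% interval -0.17 to 1.11, adjusted p 0.355). Without both of those libraries the log2 fold change was -0.052. The proximal tubule marker sum was also lowest in Control 3 (183828), and in TfR1KO 2 (365591) it was below Control 1 and Control 2 (396570 and 427617). That sum is not a measure of proximal tubule content, since single genes with opposite changes make up much of it. Pck1, called higher, had 171509 normalized counts in TfR1KO 2, and Kap, called lower, had 158797 in Control 2. The part of proximal tubule content in the Phyh values was not tested. Bbox1, the last enzyme of carnitine synthesis, had few counts: 22.3, 27.3 and 38.8 in Control and 14.9, 88.3 and 15.1 in TfR1KO libraries, of which TfR1KO 2 alone was high (log2 fold change 0.41, 95% interval -1.06 to 1.89, adjusted p 0.774). Leaving out that library gave -0.96.

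**Figure D4:**
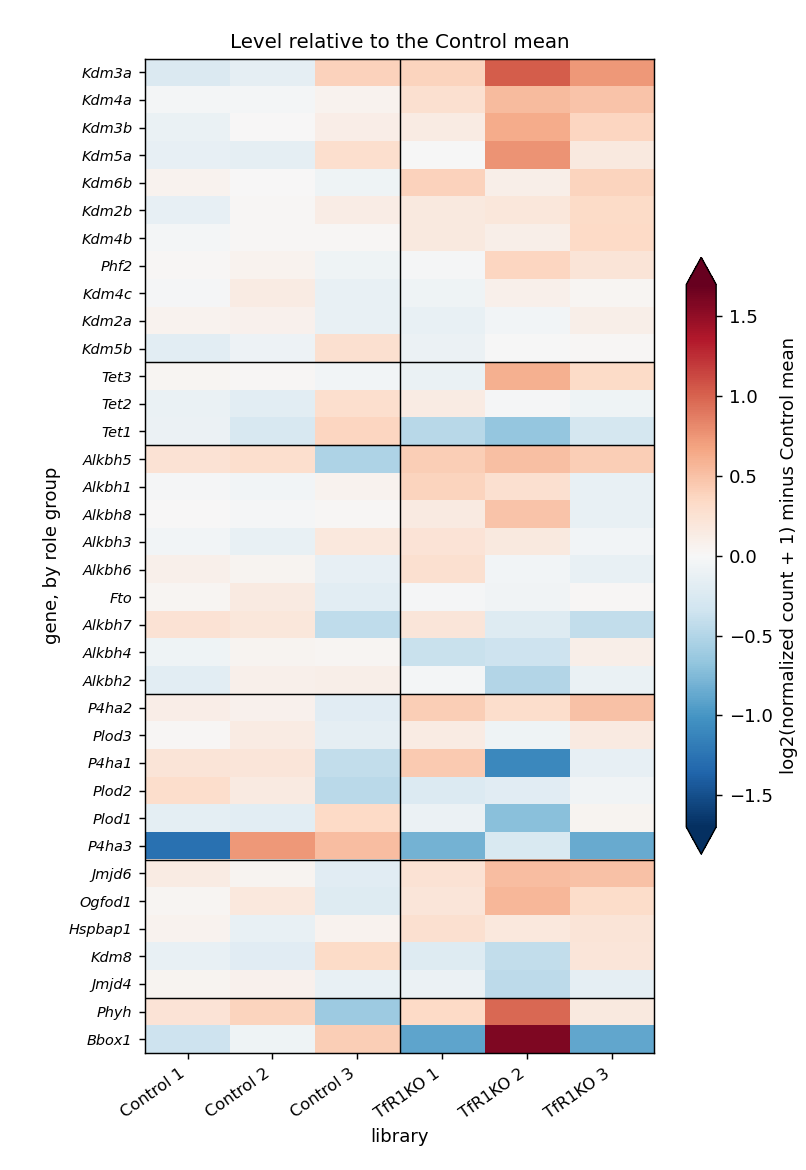
Level of each of the 36 members in each library, as log2 of the normalized count plus 1 minus the mean of the 3 Control libraries, with rows grouped by role. Kdm3a and Kdm4a are red in all 3 TfR1KO columns, Tet1 is blue in all 3, and TfR1KO 2 stands out for P4ha1 (low) and for Bbox1 and Phyh (high).

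Per kilobase of exon, the members spanned a wide range of Control levels. Phyh, at 2064 ± 679 normalized counts per kilobase (mean ± SD, n = 3), stood above all others in every Control library. Next came Plod2 (439.7 ± 112), Alkbh5 (435 ± 123) and P4ha1 (317 to 493 over the 3 libraries), and from Plod2 down to Kdm5a (108 ± 19.4), the 23rd gene, no neighbours in the order differed beyond the spread of their libraries. Breaks with no overlap followed below Kdm5a, Ogfod1, Alkbh8 and Hspbap1. Bbox1 (6.68 ± 1.92) and P4ha3 (3.69 ± 2.29) were lowest. The order covers 35 members, since Kdm8 was not matched to a gene model of the build.

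Genes that work with the dioxygenases were taken from lists. Of 18 genes that make or use 2-oxoglutarate, 5 passed the DESeq2 test higher (27.8%, against 7.74% of all genes) and 0 lower, and 1 passed by edgeR (5.56%, against 6.02%). Bcat1, a branched-chain aminotransferase that consumes 2-oxoglutarate, had 218, 155 and 109.8 normalized counts in Control and 474, 1347 and 733 in TfR1KO libraries (log2 fold change 2.40, SE 0.42, DESeq2 adjusted p 5.00e-07, edgeR adjusted p 0.0234). Psat1, an aminotransferase of serine synthesis that yields 2-oxoglutarate, and Gpt, which runs in both directions, had log2 fold changes of 1.65 and 1.04 (DESeq2 adjusted p 0.00132 and 0.0274). Idh1 and Glud1 were the other genes that passed. The median of the list was 0.10. Of 8 genes that remove succinate or fumarate, products that inhibit these enzymes, 0 passed by DESeq2, edgeR or limma-voom, and 0 had an unadjusted p under 0.05 by any of them.

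Of 16 partners of the collagen hydroxylases, 1 passed higher and 2 lower by DESeq2 (18.8% in all, against 14.9% of all genes) and 0 by edgeR, where 4 had an unadjusted p under 0.05 (25.0%, against 25.8%). Of the 16 differences 4 were positive and 12 negative (8136 of all 16509 genes tested were negative), with a median of -0.33. Lox, which cross-links collagen, was at 1196, 1112 and 2337 in Control and 1527, 7359 and 4523 in TfR1KO libraries (log2 fold change 1.53, DESeq2 adjusted p 0.0230). P3h1 and P3h2, prolyl hydroxylases of collagen that need the same cofactors, had log2 fold changes of -0.66 and -0.88 (DESeq2 adjusted p 0.00707 and 0.0255). The stromal sum was also lower in every TfR1KO library than in any Control library, by a narrow gap at the nearest pair, and its part was not tested.

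Of 20 histone methyltransferases, the enzymes that write the marks the demethylases remove, 3 passed higher and 1 lower by DESeq2 (20% in all, against 14.9% of all genes) and 0 by edgeR, where 7 had an unadjusted p under 0.05 (35%, against 25.8%). Their median log2 fold change was 0.27, with 17 positive (8373 of all 16509 genes tested were). Scaling by total counts, which lowers the fold changes of all genes, was not applied to this list. Whsc1l1 and Setd7 were higher (log2 fold changes 1.24 and 0.70, DESeq2 adjusted p 0.0108 and 0.0296), and so was Dot1l. Ezh2, the writer of the Polycomb mark, had 752, 734 and 759.9 against 554, 507 and 552 normalized counts and was lower (log2 fold change -0.48, DESeq2 adjusted p 0.0120). Of 11 tested partners of DNA methylation and 13 of the methyladenosine mark, 0 passed by DESeq2, edgeR or limma-voom, with medians of -0.13 and -0.038. At an unadjusted p under 0.05 DESeq2 had 2 genes of each list and edgeR 2 and 1 (18.2% and 7.69%, against 25.8% of all genes). Hacl1, which acts after Phyh in alpha-oxidation, was higher (log2 fold change 0.81, DESeq2 adjusted p 0.0324, edgeR adjusted p 0.0973), and both genes were highest in TfR1KO 2.

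A list of 21 further dioxygenases that are not among the 36 gave 1 gene higher (Kdm7a, log2 fold change 0.96, DESeq2 adjusted p 0.0203) and 2 lower (P3h1 and P3h2), 14.3% in all against 14.9% of all genes. By edgeR 0 of the 19 tested passed, with 4 at an unadjusted p under 0.05 (21.1%, against 25.8% of all genes). The median of that list was -0.048.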

How the data were processed

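Poly-A RNA of 6 whole kidneys was sequenced. The authors deposited raw counts per gene, made, per the labels, with CASAVA 1.8.2, Trimmomatic, TopHat2 2.0.11 on mm9 and HTSeq; the strand setting is not given in the sources used here. Total counts, 16591156 to 22898008 per library, make counting error small for most members, so precision is set by having 3 libraries in each group. Counts were fitted over all genes with DESeq2 1.42.0 in R 4.3.3, which the study names (Wald test, median-ratio size factors, independent filtering at 0.05, no covariate, Benjamini-Hochberg adjustment over 16509 genes with a mean of at least 3.51). Calls were made at an adjusted p under 0.05. Alternatives were edgeR 4.0.16, limma 3.58.1 with voom, other size factors and filters, a block for the replicate number, and fits without single libraries. The code was tested on simulated data, where the calls of DESeq2 held more unchanged genes than those of edgeR. For this reason edgeR results are given beside many of those of DESeq2. Levels per kilobase used the union of exons in GENCODE for mm9. By rule, values in each library are given for the members that passed and the most abundant of each role group; those given for other members were chosen after their values were seen. The members and lists were chosen with earlier results of these data known. Counts of members are read against all genes tested, with no test on a list. Some values of the pathway lists are not reported here.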

Additional observations from a re-analysis of the deposited data

How the results depend on the processing

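The limits are those of 3 libraries per group and of whole-kidney RNA. All genes called numbered 2463, against 921 by edgeR and 941 by limma-voom, and 1239 to 3205 when 1 library was left out. With the 2-fold rule 1464 became 733 and 737, and 1038 to 1967 without 1 library. Members called higher numbered 2. This became 0 by edgeR, by limma-voom, and with total-count or upper-quartile size factors; 1 with TMM size factors (Kdm4a), without independent filtering (Kdm4a) and with the replicate block (Kdm3a); and 0 to 2 without 1 library. No setting called a member lower or called one at 2-fold. By edgeR 6 members (17.1%, against 25.8% of all genes) and by limma-voom 5 (against 3982 of 15308 genes) had an unadjusted p under 0.05. The median log2 fold change of the 36 members was 0.15. By edgeR, by limma-voom and with at least 10 counts in 3 libraries it was 0.17, 0.11 and 0.19. These 3 medians are over 35 members, since P4ha3 (log2 fold change -0.96) was filtered out. It was 0.13 with TMM, 0.038 with total-count and 0.099 with upper-quartile size factors, and 0.098 with the replicate block. Without 1 library it ran from 0.072 to 0.17. Without Control 3 and TfR1KO 2 together, a setting added after seeing the data, it was 0.10.

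Same-numbered libraries of the 2 groups deviated with correlations of 0.015, 0.066 and 0.15, and other pairs with -0.16 to 0.045. Of the same-numbered pairs only the third was above the threshold set, 0.1. The main fit did not treat the numbering as a pairing, and values with the replicate block are given beside it. Of 321 values of single members over the 9 settings with all 6 libraries, 296 kept direction and side of the threshold, 11 lost a call and 14, in 5 members, changed sign. Of these 14, 7 came with total-count or upper-quartile scaling, which moved the median of all genes to -0.097 and -0.043, a shift shared by all genes. By edgeR, limma-voom, TMM, total-count and upper-quartile scaling, Kdm4c went to -0.0030, -0.0051, -0.011, -0.093 and -0.038. Tet2 went to -0.0078 by edgeR and to -0.014, -0.10 and -0.048 with those 3 scalings. Alkbh6 went to -0.059 and -0.0073 with total-count and upper-quartile scaling, Plod3 to -0.019 with total-count scaling, and Bbox1 to -0.13 by limma-voom and -0.080 with the replicate block. Without 1 library the log2 fold change ran from -0.089 to 0.028 for Kdm2a, -0.052 to 0.080 for Kdm4c, -0.13 to 0.11 for Kdm5b, -0.33 to 0.042 for Kdm8, -0.086 to 0.16 for Tet2, -0.11 to 0.048 for Fto, -0.093 to 0.12 for Alkbh6, -0.57 to 0.15 for P4ha1, -0.0022 to 0.15 for Plod3 and -0.96 to 0.81 for Bbox1. Without Control 3 and TfR1KO 2 together the sign changed for Kdm4c (-0.086), Kdm5b (0.098), Kdm8 (0.17), Plod1 (0.14), Bbox1 (-0.72) and Phyh (-0.052). The cause was not tested. With the longest transcript in place of all exons, 16 of 36 family shares moved by more than their SD, P4ha1 in Control from 87.4 to 78.0%.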
